A study of Mus musculus with 4 samples.

Results

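Genes for the subunits of the mitochondrial respiratory chain and of ATP synthase, with the factors that assemble them, were followed on 4 Affymetrix Mouse Genome 430 2.0 arrays, which measure messenger RNA. The members were all genes whose symbol in the platform annotation starts with Nduf, Sdha, Sdhb, Sdhc, Sdhd, Uqcr, Atp5, or Cox and a digit. There were 102 of them among 18193 gene symbols, and no measured value entered the rule. By their known place in the chain, 42 belong to complex I, 8 to complex II, 8 to complex III, 27 to complex IV and 17 to complex V. Ndufa4 and Ndufa4l2, named for complex I, were counted with complex IV, where Ndufa4 is now placed.

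The cells were mouse embryonic fibroblasts, cultured from embryos, with 1 array for each of 4 groups. Wip1+/+ cells, with both copies of the gene, were measured unirradiated and 4 h after 5 Gy of gamma radiation. Cells labelled Wip1-/-, the notation for loss of both copies, were measured in the same 2 states. Ppm1d encodes Wip1, a phosphatase that acts on p53 and other proteins of the DNA damage response, and the arrays were made to study p53 target genes. Unirradiated arrays carry the label 0 h, so radiation and 4 h of further culture cannot be told apart. How many embryos lay behind each array was not stated. With 1 array per group, differences between groups and differences between cultures cannot be told apart. No test was possible, and every ratio below compares a pair of arrays.

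The respiratory chain passes electrons from NADH through complex I, or from succinate through complex II, to coenzyme Q, then through complex III to cytochrome c and through complex IV to oxygen. Complexes I, III and IV pump protons out of the matrix, and complex V, the ATP synthase, lets them return and makes ATP. Most subunits are encoded in the nucleus, translated in the cytosol and imported, while a few central ones are encoded in mitochondrial DNA. Assembly factors help build a complex without being part of the finished enzyme.

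Signal intensity was deposited on a linear scale, with the trimmed mean of each array at 500. The array of unirradiated cells labelled Wip1-/- stood apart from the others, and it enters both the irradiation comparison of those cells and the comparison of unirradiated genotypes. Bacterial and phage control transcripts, which this type of array measures with 18 probe sets, showed it: on that array 12 of 18 lay at least 1.2-fold from the mean of the other 3 arrays, against 2 to 4 of 18 on each of the others. The ratio of the 3′ to the 5′ probe set of Gapdh was 0.981 there and 0.701 to 0.725 elsewhere, while that of β-actin was 1.21 to 1.25 on all 4. The brighter probe set of Ppm1d read 375 and 364 in Wip1+/+ cells, unirradiated and irradiated, and 504 and 482 in cells labelled Wip1-/-, higher in both. Its dimmer set, in the same order, read 317, 463, 219 and 561, so that the array labelled Wip1-/- was the lower one in unirradiated cells and the higher one in irradiated cells. Where its probe sets lie relative to the deleted part was not stated, so this checks nothing, and the genotype is given as labelled. All 10 fibroblast markers looked for passed the filter on low signal, among them Col1a1, Col1a2 and Vim. Of these 10, Pdgfra, Dcn and Lum were dim, at most 339 on any array. All 8 macrophage markers and 3 of 4 epithelial markers looked for passed it too.

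Of the 102 genes, 96 passed that filter, a mean signal of at least 67.95 over the 4 arrays. They were 75 structural subunits and 21 assembly factors, and 82 had a mean of at least 1000. The 6 below it were Ndufb4, Cox7c, Cox4i2, Cox7b2, Cox8b and Ndufa4l2. Cox4i2, Cox7b2, Cox8b and Ndufa4l2 are isoforms known from particular tissues or from low oxygen. Ndufb4 and Cox7c are ordinary subunits whose only probe sets with a single symbol were dim. Ndufb4 reads 6284, 6810.2, 6107 and 6319 by a probe set that it shares with 2 related symbols and that was therefore not used. Here and below, 4 values in a row are those of unirradiated Wip1+/+, irradiated Wip1+/+, unirradiated Wip1-/- and irradiated Wip1-/- cells, unless the sentence says otherwise.

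On the 3 arrays other than the one that stood apart, respiratory chain messages differed little. The median fold range, the highest over the lowest of those 3 signals, was 1.11 over the 96 genes, and 77 of the 96 lay within 1.2-fold. Genes with a mean signal of at least 1000 are the fairer comparison, since dim signals vary more. Of the 82 members past that limit, 72, or 87.8%, lay within 1.2-fold, against 68.1% of all 4223 genes past it. The 2 sets share that limit only and were not matched in brightness above it. The median signal of the 96 members was 4929 to 5534 by array. By complex the median fold range was 1.12 for complex I, 1.12 for complex II, 1.07 for complex III, 1.12 for complex IV and 1.08 for complex V. All 8 genes of complex III lay within 1.2-fold, as did 35 of 41 of complex I. Over all 4 arrays the members' median range was 1.39, and it was 1.38 for both the members and all genes with a mean of at least 1000. The choice of 3 arrays and the limit of 1.2-fold were made after the values were seen.

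**Figure D1:**
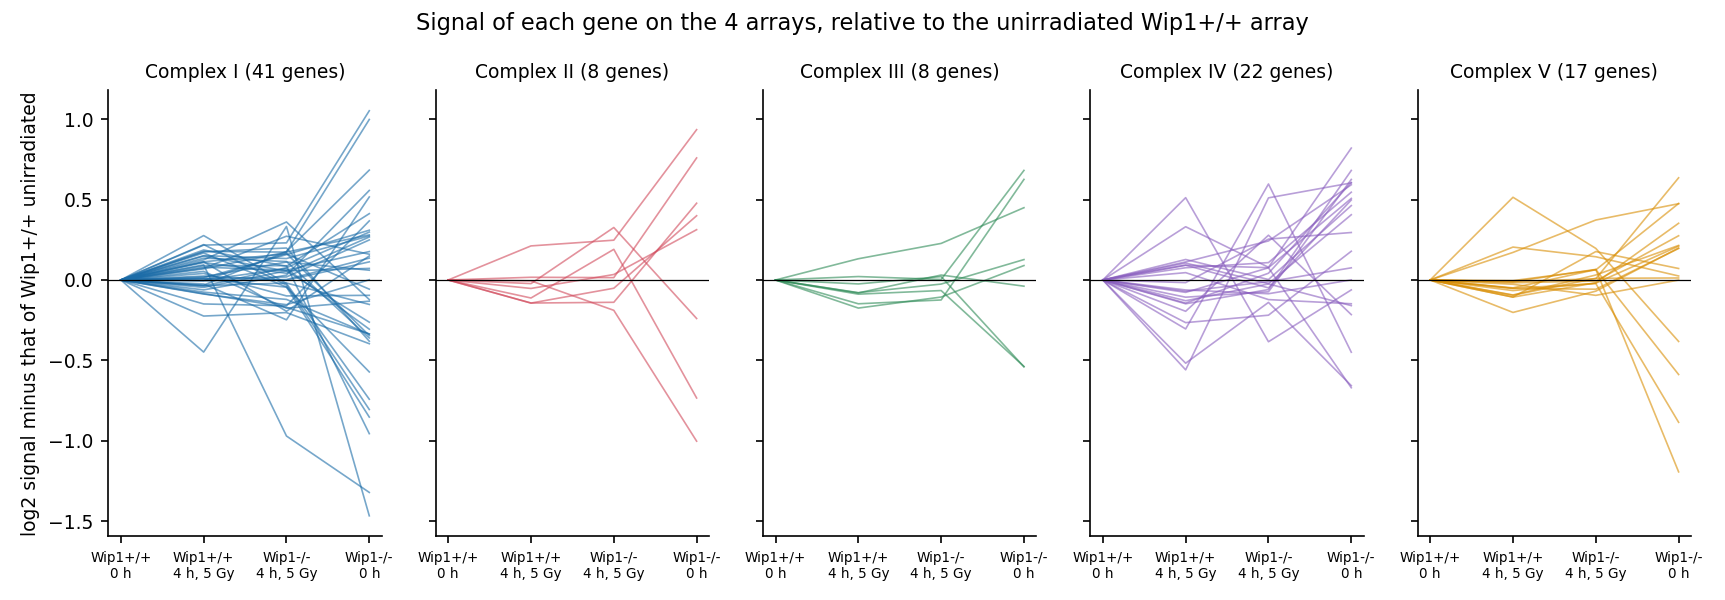
Log2 signal of each of the 96 genes on the 4 arrays, minus that on the unirradiated Wip1+/+ array, in a panel per complex, with 1 line per gene and the unirradiated Wip1-/- array drawn last. Lines stay close together over the first 3 arrays, with a median fold range of 1.11, and spread in both directions on the last.

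The following bright members had brightest probe sets within 1.2-fold on all 4 arrays, and were picked out after the values were seen. Cox4i1, the subunit of cytochrome oxidase known for its part in regulation by ATP, read 20760.2, 19777, 21878 and 20608. Cox6a1, another nuclear subunit of complex IV, read 26988, 25852, 27001 and 25436. The second Cox6a1 set read 10638, 9747, 6541 and 8875, lowest on the unirradiated array labelled Wip1-/-, with a log2 ratio of -0.70 between unirradiated genotypes. Atp5g1, one of the genes for subunit c, the ring through which protons turn the ATP synthase, read 4470.0, 4388, 4469 and 4184. Uqcrc1, a core subunit of complex III, read 5965, 5642, 5808 and 6093. Ndufab1, the acyl carrier protein that is also a complex I subunit, read 7360.5, 7457, 7677 and 7953. A set that it shares with a copy named Ndufab1-ps, and that was not used, read 3281, 3302, 1431 and 4263. That set was lowest on the unirradiated array labelled Wip1-/-, with a log2 ratio of -1.20 between unirradiated genotypes.

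Irradiation of Wip1+/+ cells was compared first: the log2 ratio is that of the irradiated over the unirradiated array, so that 1 is a doubling. None of the 96 genes was 1.5-fold higher or lower. Over all 11546 genes that passed the filter, 10.7% were at least 1.5-fold apart in either direction, and over the genes with a mean of at least 1000, 0.805%, so 0 of 82 bright members is close to the background. The median log2 ratio was -0.01 for the members and 0.01 for all genes. The sign for the members turned under quantile normalization, cyclic loess and the median over probe sets. By complex the median was 0.04 for complex I, -0.04 for complex II, -0.08 for complex III, -0.07 for complex IV and -0.05 for complex V. That of complex IV turned under quantile normalization and with no filter. Of the genes of complex V, 14 of 17 read lower after irradiation, and of the 9 ubiquitous structural subunits of complex IV 8 did, but by small amounts. Of complex I, 26 of 41 read higher. Of all genes 52.3% read higher in this pair, and of genes with a mean of at least 1000, 50.8%.

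**Figure D2:**
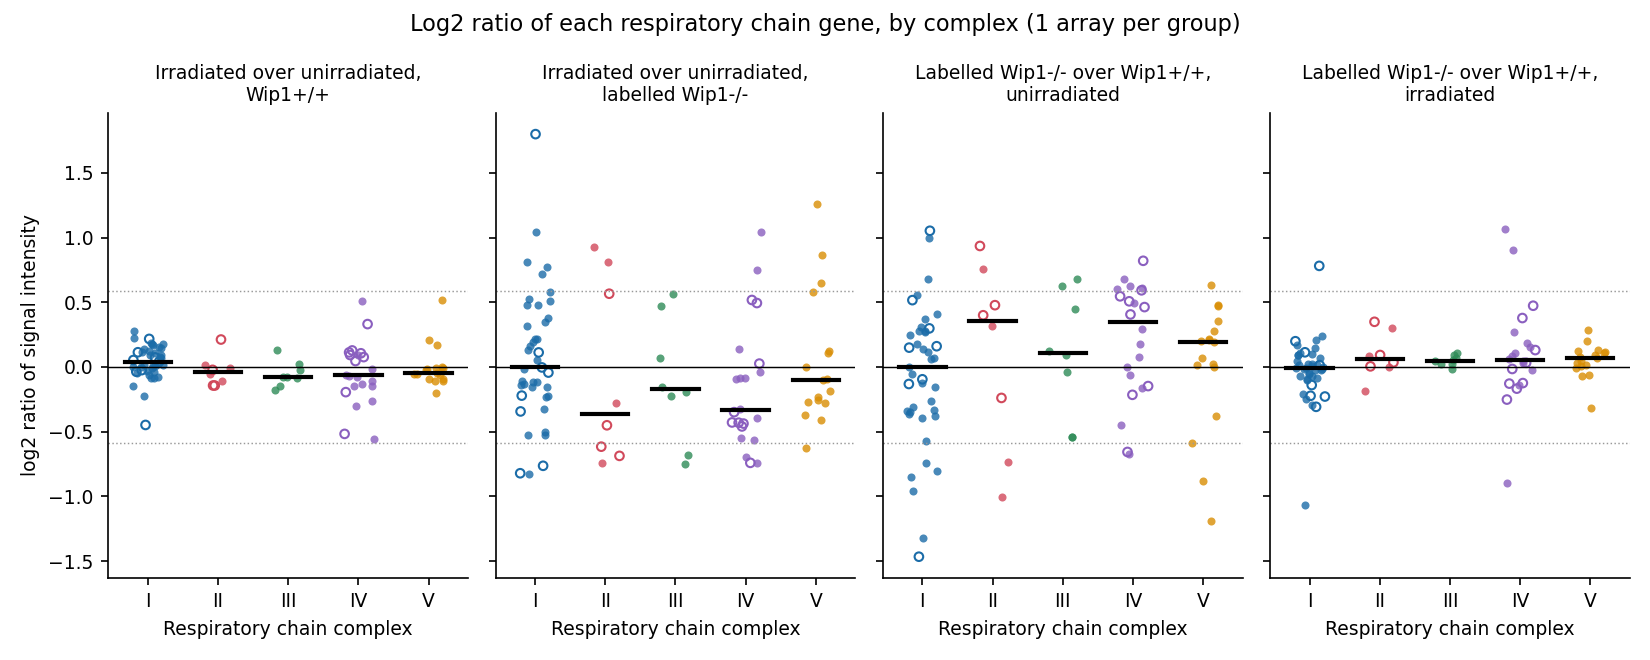
Log2 ratio of signal for each gene in the 4 comparisons, by complex, with filled points for structural subunits, open points for assembly factors, black bars for medians and dotted lines at 1.5-fold. In the first panel no point lies beyond the dotted lines, and in the 2 middle panels, which share the unirradiated Wip1-/- array, 24 and 27 points do.

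The widest ratio among bright members in Wip1+/+ cells was that of Atp5md, also called DAPIT, a small Fo subunit linked to dimers of the ATP synthase. Its only probe set read 7555 unirradiated and 10791 irradiated in Wip1+/+ cells, and 5796 and 8657 in cells labelled Wip1-/-. In each genotype the irradiated array was the higher one, with log2 ratios of 0.51 and 0.58. The second ratio contains the unirradiated array labelled Wip1-/-, which stood apart, and between irradiated genotypes the ratio was -0.32. Of 8 Fo subunits, Atp5md alone read higher in Wip1+/+ cells. In cells labelled Wip1-/- 3 of 8 did, the others being Atp5k, at 0.86, and Atp5mpl, at 0.11. In Wip1+/+ cells Atp5g2, another subunit c gene, read 8567 and 7449, and Atp5j2, subunit f, read 11246 and 11215. Atp5md was singled out after its values were seen.

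In irradiated cells the genotypes were also close. The array labelled Wip1-/- was higher by 1.5-fold or more for 3 of 96 genes and lower for 2, against 14.6% of all genes either way. Among bright members the count was 1 of 82, where the background was 3.77%. The medians were 0.03 for the members and 0.00 to 0.07 in size for the complexes, and those of complexes I and V changed sign under a scaling alternative. For complex III 7 of 8 genes read higher, none by more than 0.11 on the log2 scale. Of all genes 49.1% read higher in this pair. Macrophage markers moved with the genotype label, the 8 markers summing to 8547 and 8583 in Wip1+/+ cells, unirradiated and irradiated, but to 2032 and 1894 in cells labelled Wip1-/-. All 8, among them Lyz2 and Ctss, were lower on both arrays labelled Wip1-/-, and their part in the genotype comparisons was not tested. In these bulk cultures fewer cells of a type and less RNA per cell cannot be told apart.

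Ndufs5, a small subunit on the intermembrane side of complex I, was the bright member that differed. It read 4831 and 5157 in Wip1+/+ cells and 1934 and 2466 in cells labelled Wip1-/-, in the order unirradiated and irradiated. The log2 ratios between genotypes were -1.32 unirradiated and -1.06 irradiated. A second probe set, shared with a copy named Ndufs5-ps and so left out by the rule, read 4043, 4174, 1591 and 4273. It was low on the unirradiated array labelled Wip1-/- and at the level of Wip1+/+ cells on the irradiated one, so the lower Ndufs5 signal in irradiated cells rests on 1 probe set. Messages of a gene and of a near-identical copy may share such probes, and the Ndufs5 signal is uncertain for that reason.

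The other 4 genes past 1.5-fold in irradiated cells were dim. Ndufaf6, a complex I assembly factor, read 390, 286, 141 and 491. Cox7a1, the heart and muscle form of subunit VIIa, read 68.5, 41.9, 104 and 97.6. It passed the filter only through the arrays labelled Wip1-/-, so its place among the 3 higher genes supports nothing. Its value on the irradiated Wip1+/+ array lies under the floor of 46.5, below which signals were not distinguished. Cox6a2, the muscle form of subunit VIa, read 115, 93.2, 84.3 and 174. Cox6b2, known from testis, read 421, 600, 403 and 322, and was lower in irradiated cells labelled Wip1-/-. Of 11 muscle markers, 6 were at or under the floor on all 4 arrays, including Myog, Mb and Myh6, and 4 passed the filter. Acta1, skeletal muscle actin, was the brightest of these, at 9419, 9642, 7499.6 and 8539.7, and Tnnt2, cardiac troponin T, read 113, 178, 236 and 157. The part of such cells in the Cox7a1 and Cox6a2 signals was not tested.

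On the bright side, Cox5a, a nuclear subunit of complex IV on the matrix side, had the same direction in all its 3 probe sets. They were higher in irradiated cells labelled Wip1-/- by log2 ratios of 0.27, 0.10 and 0.29. The brightest read 18083, 17878, 22191 and 21567. This is within 1.5-fold, and it was picked out after the values were seen.

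The promoters of 3 members on which these comparisons turn are shown to let their sequence be read beside the values. Atp5md was higher on the irradiated array of both genotypes, and Ndufs5 lower on both arrays labelled Wip1-/- by the probe set used. Ndufa5, described below, was low in both of its probe sets on the unirradiated array labelled Wip1-/-. They were chosen after the values were seen. Each is the 250 bases before the transcription start, 5′ to 3′ on the strand of the gene, which is the minus strand for all 3, from RefSeq on mouse build GRCm38.p6. Capitals mark letters of the motifs searched on both strands. Atp5md lies at chr19:47090648-47090897, Ndufs5 at chr4:123718187-123718436 and Ndufa5, by the downstream of its 2 listed starts, at chr6:24527527-24527776. The later part of this Ndufa5 window lies after the upstream start, whose own window is chr6:24527691-24527940.
Atp5md: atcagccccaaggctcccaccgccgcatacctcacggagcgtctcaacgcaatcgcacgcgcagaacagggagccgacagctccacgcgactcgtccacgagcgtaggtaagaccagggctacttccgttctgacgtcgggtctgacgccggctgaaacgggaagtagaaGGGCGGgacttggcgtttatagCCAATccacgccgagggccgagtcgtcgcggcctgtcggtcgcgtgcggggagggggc
Ndufs5: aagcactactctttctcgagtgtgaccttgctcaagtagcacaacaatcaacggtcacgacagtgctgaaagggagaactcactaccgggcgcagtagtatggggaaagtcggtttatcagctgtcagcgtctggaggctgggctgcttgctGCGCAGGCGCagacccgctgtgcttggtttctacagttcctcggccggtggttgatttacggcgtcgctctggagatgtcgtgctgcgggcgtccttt
Ndufa5: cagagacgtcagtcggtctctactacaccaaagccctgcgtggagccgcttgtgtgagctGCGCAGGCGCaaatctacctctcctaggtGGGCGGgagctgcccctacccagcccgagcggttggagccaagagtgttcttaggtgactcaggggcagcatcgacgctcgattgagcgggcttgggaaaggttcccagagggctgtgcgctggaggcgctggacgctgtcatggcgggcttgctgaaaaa

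The Ndufs5 and Ndufa5 promoters hold the same 10 letters of the NRF1 motif, read on the opposite strand. In Ndufs5 they lie at 98 to 89 bases before the start. In Ndufa5 they lie at 190 to 181 bases before the downstream start and 26 to 17 before the upstream one. NRF1 is a transcription factor known to act on many respiratory chain genes. Ndufa5 also has an SP/KLF box at 161 to 156 bases before its downstream start. That box lies after the upstream start, and the window before the upstream start holds no SP/KLF box. In Atp5md the matches were an SP/KLF box at 80 to 75 bases and a CCAAT box at 58 to 54 bases before the start. A match is only a description of letters. Both genes with the NRF1 letters belong to complex I, where 6 of 40 promoters hold them. Both Ndufa5 windows are among the 6, with the same match counted in each.

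The unirradiated array labelled Wip1-/- changed the picture for every complex. Against the unirradiated Wip1+/+ array, 14 of 96 genes were higher by 1.5-fold or more and 13 lower, beside 32.9% of all genes either way. Among members with a mean of at least 1000, 12 were higher and 11 lower of 82, beside 25.4% of all genes past that limit. When the irradiated array labelled Wip1-/- was set over the same unirradiated array, 12 genes were higher and 12 lower, beside 30.8% of all genes. Bright members numbered 10 higher and 9 lower, beside 22.5%. The shares are near the background, so they are not a result about the respiratory chain. Both comparisons contain the 1 array, so a gene low on it appears as lower in the first and higher after irradiation in the second.

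Different probe sets of one gene, which should report one message, went apart on that array. Among 40 members with at least 2 probe sets of mean 500 or more (97 sets, a limit set after the values were seen), the SD of log2 ratios between sets of a gene was 0.12, 0.14 and 0.15 in the 3 pairs of arrays without it. In the 3 pairs with it the SD was 0.57, 0.59 and 0.59. Over all 2317 genes with such sets it was 0.18 to 0.23 without that array and 0.54 to 0.56 with it. Sets of opposite sign at least 1.5-fold apart were found for 1 or 2 of the 40 members without the array, and for 18 or 19 with it. These are 2.5% to 5% and 45% to 47.5% of the members. Of the 2317 genes, 4.27% to 7.47% had such sets without the array and 40.7% to 41.4% with it. The split is therefore not particular to the respiratory chain. The spread covers differences between probes and not between cultures.

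**Figure D3:**
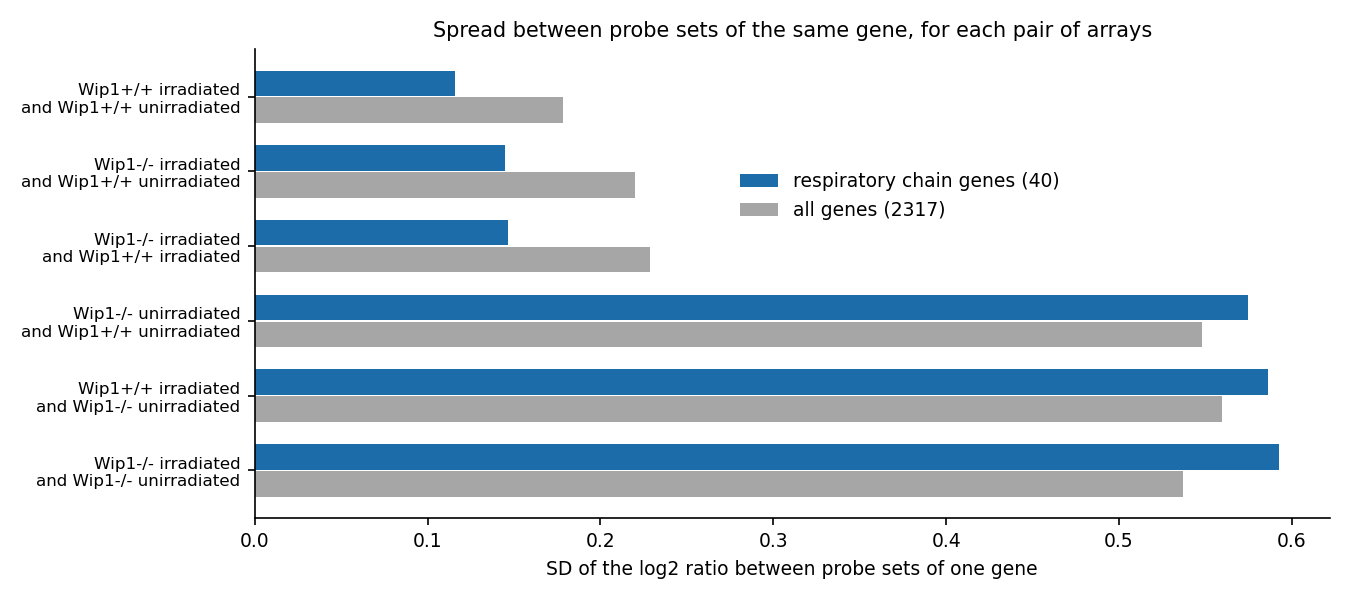
Spread, as an SD of log2 ratios, between probe sets of a gene, for respiratory chain genes and for all genes with at least 2 probe sets of mean 500 or more, in each of the 6 pairs of arrays. The 3 pairs that contain the unirradiated Wip1-/- array reach 0.57 to 0.59 for the members, against 0.12 to 0.15 for the other pairs.

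Named subunits show the split. Cox5a read 22191 by its brightest set on the unirradiated array labelled Wip1-/- and 2620.4 by its dimmest, which read 11494 on the unirradiated Wip1+/+ array. The log2 ratios of its 3 sets in that comparison were 0.30, -0.03 and -2.13. Cox6c, a small complex IV subunit, read 15252, 13765, 24457 and 14634 by one set and 8851, 9104, 3809 and 9221 by the other. Atp5pb, subunit b of the stalk that holds the ATP synthase head still, read 15451, 15332, 6756 and 16173 by one and 7428.5, 6942, 9892 and 7194 by the other. In Cox6c and Atp5pb one set was high and the other low on the unirradiated array labelled Wip1-/-, and neither parted so on the other 3 arrays. Uqcrb, a complex III subunit that binds coenzyme Q, had log2 ratios of 0.63 and -0.50 between the unirradiated genotypes. Sdhaf2, which attaches FAD to Sdha, had 0.93 and -0.65. Ndufs8, an iron-sulfur subunit of complex I, had -0.74, 0.26, 0.30, 0.33 and -0.40 by its 5 sets.

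**Figure D4:**
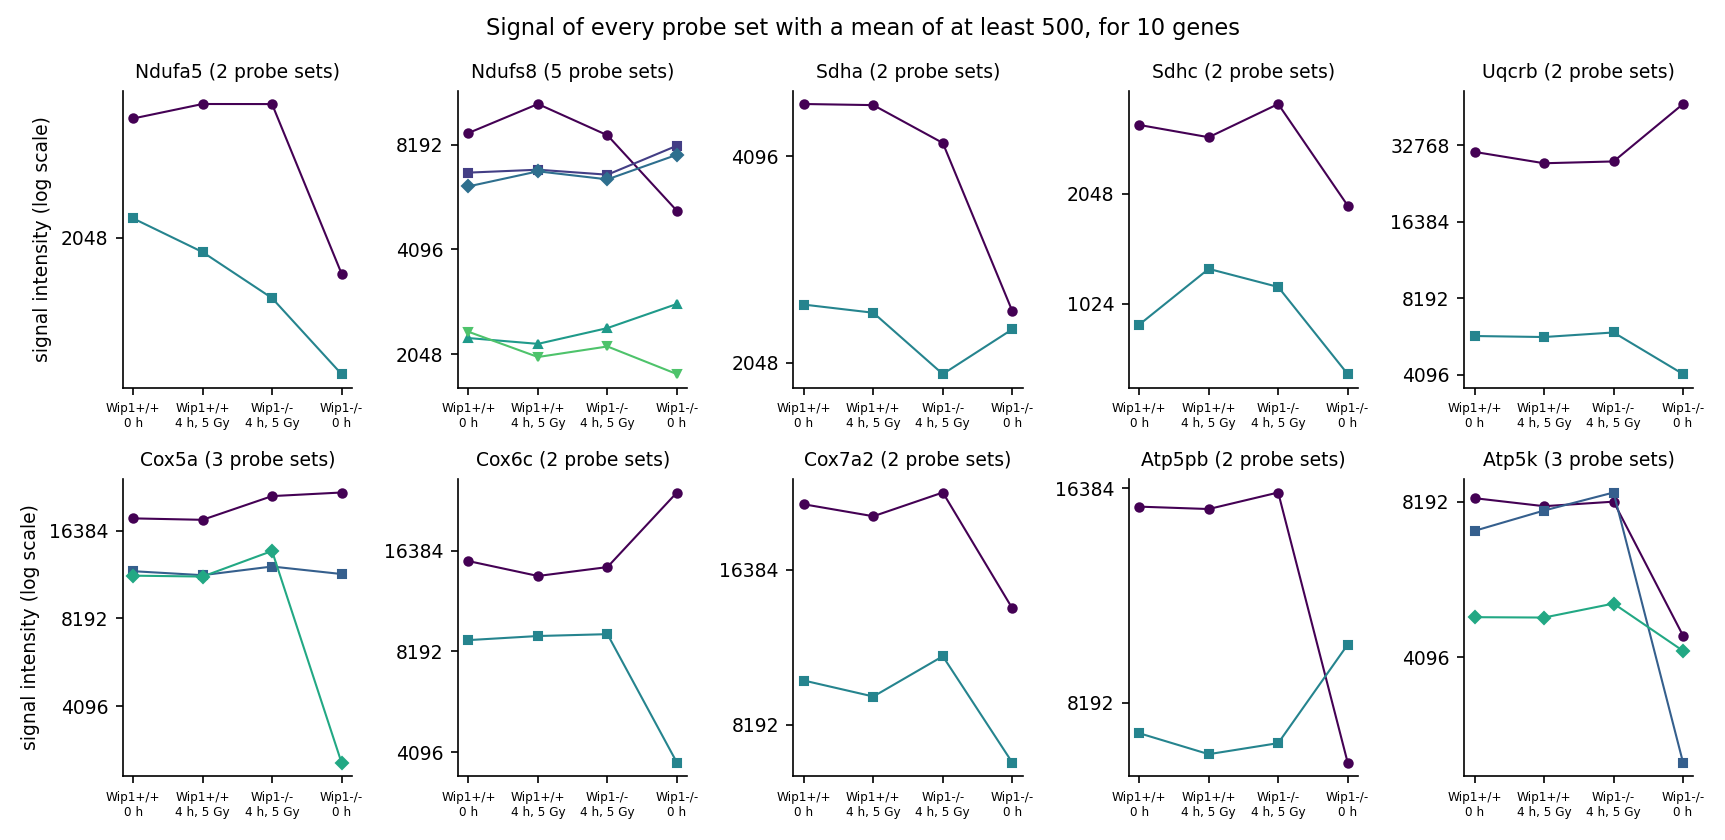
Signal (log scale) on the 4 arrays of every probe set with a mean of at least 500, for 10 genes, with 1 line per probe set. In Cox6c the lines run nearly alongside each other over the first 3 arrays and part on the last, the unirradiated Wip1-/- array, where one set reads 24457 and the other 3809. Not every gene does so: in Ndufa5 and Cox7a2 both sets fall on the last array. In Sdhc, Ndufs8, Ndufa5 and Atp5k sets already go opposite ways between the Wip1+/+ arrays. The Cox6c sets do so by little, with log2 ratios of -0.15 and 0.04.

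Some members held one direction in every set. Ndufa5, an accessory subunit of the arm that reduces coenzyme Q, read 3411, 3628, 1758.5 and 3627 by one set and 2226, 1927, 1144 and 1583 by the other. Both were lower on the unirradiated array labelled Wip1-/-, with a log2 ratio of -0.96 each, and Ndufa5 alone was past 1.5-fold in every set between unirradiated genotypes, of 15 genes past it by their brightest set and with several sets. On the irradiated array its brighter set was back at the Wip1+/+ level and its other set was not. In the irradiation comparison of cells labelled Wip1-/-, 3 of 14 such genes were past 1.5-fold in every set. Cox7a2, the common form of subunit VIIa, read 21945, 20804, 13791 and 23131, and its second set 9988, 9299, 6924 and 11133. Sdhc, an anchor of complex II in the membrane, had log2 ratios of 0.92 and 0.79. Ndufaf4, a complex I assembly factor, read lower after irradiation, with -0.82 and -0.71.

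Complex II, which also serves the citric acid cycle, went both ways on that array within each role, the catalytic pair Sdha and Sdhb and the membrane pair Sdhc and Sdhd. Its catalytic subunit Sdha, which holds FAD, read 4878, 4860, 2435 and 4280.1. Sdhb, the iron-sulfur subunit, read 7328, 7066, 9103 and 7503. Sdhc read 3166, 2929, 1903 and 3613. Sdhd, the other membrane anchor, read 3338, 3378, 5650 and 3372. By these brightest sets each of the 4 differed by at most 0.11 on the log2 scale between the first 2 arrays, and on the unirradiated array labelled Wip1-/- Sdha and Sdhc were low and Sdhb and Sdhd high. The second, dimmer sets differed more between the first 2 arrays, with log2 ratios of 0.51 for Sdhc, at 898 and 1277, and 0.32 for Sdhd, at 365 and 456. The second Sdhd set was not high on the unirradiated array labelled Wip1-/-, with -0.05 between unirradiated genotypes, so the high Sdhd signal rests on 1 set. The second Sdha set read 2488, 2421, 2291 and 1971, with a log2 ratio of -0.12 between unirradiated genotypes, so the low Sdha signal rests on 1 set. The complex II median in that comparison was 0.36 with its 4 assembly factors and -0.21 over the 4 subunits alone.

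Complex IV had a median of 0.35 between unirradiated genotypes and -0.34 for irradiation in cells labelled Wip1-/-, the second being the same array taken as denominator. These depend on the choice of genes and probe sets: over structural subunits alone they were 0.18 and -0.09, with the median over probe sets 0.13 and -0.11, and with no filter 0.08 and -0.09. Of 22 genes, 15 were higher on that array than in unirradiated Wip1+/+ cells. In the same pair 53.5% of all genes were higher, 54.9% of those with a mean of at least 1000, and 60.4% of the 96 members. The 9 assembly factors of complex IV, which insert heme and copper or mature the enzyme, had a median of 0.46 in that comparison. Its 9 ubiquitous subunits had 0.30. Cox10, which makes heme O, read 454, 571, 802 and 480. Cox17, the copper chaperone, read 4570.0, 4940.2, 6890 and 5408. Cox11, also a copper factor, read 954, 1017, 1356 and 1006. These 3 were highest on the unirradiated array labelled Wip1-/-. Cox15, which makes heme A, was lowest there, with 670, 468, 425 and 608. Cox8a, a short membrane subunit, read 4862, 4514, 7499 and 4621. With the irradiated array labelled Wip1-/- over the irradiated Wip1+/+ array, a pair without that array, the complex IV median was 0.05.

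Complexes I, III and V had genes on both sides. In complex I, Ndufc1 read 6709, 7039, 13402 and 7566, with the highest ratio of the structural subunits between unirradiated genotypes. Ndufb10 read 3476, 3906, 1925 and 3373, and Ndufa6 2635, 3069, 1508 and 2578. The other way, Ndufb8 read 5653, 5529.5, 9078 and 6393. The median over 41 genes was 0.00, and -0.15 to 0.06 under the alternatives. Its sign turned under quantile normalization and cyclic loess. It also turned with the median over probe sets, with structural subunits only and with the brightest set chosen by the 3 other arrays. In complex III, Uqcr10 read 4275, 4339, 6856 and 4284, while Uqcr11 read 4321, 4065, 2976 and 4128.5. In complex V, Atp5b, the catalytic β subunit, read 22167, 21424, 14747 and 23183 by its only set. Atp5a1, the α subunit that sits beside it, had log2 ratios of 0.28 and -1.02 by its 2 sets. Atp5l, subunit g, read 7851, 7796, 12197 and 7894. Atp5k, subunit e, was low in its 3 sets. The median of complex V was 0.20, and -0.17 when each gene was given the median of its probe sets.

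The difference of the irradiation log2 ratios, cells labelled Wip1-/- minus Wip1+/+, had a median of -0.07 over the 96 genes and -0.04 over all genes. By complex it was 0.03, -0.27, -0.05, -0.28 and -0.09 from I to V. All of these contain the array that stood apart. When it was replaced by the mean of both Wip1+/+ arrays, the irradiated array labelled Wip1-/- had 2 genes at least 1.5-fold higher and 2 lower. The share of all genes past 1.5-fold was not counted for this replacement, so these counts are not a result about the respiratory chain. Cox7a1, among the higher ones, passed the filter only through the arrays labelled Wip1-/-, so its place there supports nothing.

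Tissue isoforms and paralogs of single subunits were looked at together. For subunit c of the ATP synthase, Atp5g1, Atp5g2 and Atp5g3 make the same mature protein. Atp5g3 read 20834, 19353, 26606 and 20583, and Atp5g2 8567, 7449, 9833 and 8164. For cytochrome oxidase, the common forms Cox4i1, Cox6a1, Cox6b1, Cox7a2 and Cox8a passed the filter with means over 1000. Cox6b1 read 25146, 22993, 22516 and 24723. Of the alternative forms Cox4i2, Cox7b2 and Cox8b, and Ndufa4l2, the signals were at most 71.7 on any array. Cox8c, known from testis, read 328, 273, 371 and 282. Ndufa4 read 4842, 5161, 6836 and 4680.5, highest on the unirradiated array labelled Wip1-/-.

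Genes around the chain were counted from lists compiled from textbook knowledge. The counts of the irradiated pair stand beside 14.6% of all genes, and 3.77% of genes with a mean of at least 1000, that were 1.5-fold apart either way. In the pair of irradiated arrays, which leaves out the array that stood apart, 0 of 13 genes of cytochrome c and the carriers were 1.5-fold apart either way, and 0 of 15 of the citric acid cycle and pyruvate dehydrogenase. Cycs, cytochrome c itself, read 18215, 16813, 16604 and 16640.4. The mitochondrial ribosome, which translates the subunits encoded in mitochondrial DNA, had 1 of 76 genes lower and 0 higher, and its median was 0.01. Mitochondrial protein import had 0 of 23 either way, with a median of 0.06. Coenzyme Q synthesis had 2 of 12 higher, Coq4 and Coq5, and Pdss2 lower. Of 22 assembly factors outside the symbol rule, Oxa1l, which inserts subunits into the inner membrane, was the 1 higher and none was lower. It read 361, 402, 762 and 706, higher on both arrays labelled Wip1-/-. Of 7 regulators of mitochondrial biogenesis, among them Nrf1, Gabpa and Esrra, none was past 1.5-fold in that pair, and 6 of 7 read lower, where 49.1% of all genes read higher.

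Irradiation of Wip1+/+ cells left 0 genes past 1.5-fold in the carriers, the citric acid cycle, the mitochondrial ribosome and protein import. Of all genes 10.7% were past it in this pair, and of genes with a mean of at least 1000, 0.805%. In coenzyme Q synthesis 1 of 12 was higher, Coq8a, at 57.5 and 104. Of the 22 assembly factors outside the symbol rule 1 was lower, Uqcc1, which serves complex III, at 454 and 288. In the regulators 1 of 7 was lower, Ppargc1b, a coactivator of respiratory genes, at 166 and 106. Of 12 genes that copy and transcribe mitochondrial DNA, Mterf1a was higher, at 82.2 and 187, and Tfb1m lower, at 413 and 269. Tfam, which packs mitochondrial DNA, read 766, 905, 795 and 829. On the unirradiated array labelled Wip1-/- the same list had 2 genes higher and 5 lower, 4 of these at least 2-fold, including Ssbp1, which read 3756, 3382, 1168 and 4473. In that comparison, which contains the array that stood apart, 32.9% of all genes were 1.5-fold apart. Ucp3, the 1 uncoupling protein that passed the filter, read 141, 136, 146 and 66.3.

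Promoters of the members were compared with others for motifs of transcription factors known to act on respiratory genes. Of the 102 members, 84 matched a RefSeq promoter, with 90 promoters in all. The NRF1 motif was searched as GCGC, any base, then TGCGC, and was found in 14.4% of members' promoters, 10.1% of those of genes with a mean signal of at least 1000 and 3.74% of all 32851. The ETS letters CCGGAAG, recognised by GABP among others, were in 22.2%, 15.5% and 6.91%. The SP/KLF letters GGGCGG were in 44.4%, 62.5% and 32.7%, the one motif of the 5 that was rarer in members than in genes with a mean of at least 1000. The YY1 motif, searched as AA, any base, then ATGGCGG, was in 2.22%, 1.47% and 0.521%. The CCAAT box was in 38.9%, 34.7% and 33.8%. The median GC content of the same windows was 57.6%, 61.2% and 52.4%. Both strands were searched in the 250 bases before the start, and some letters of the motifs can overlap.

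By complex, the NRF1 letters were in 6 of 40 promoters of complex I, 2 of 7 of complex II, 0 of 5 of complex III, 1 of 20 of complex IV and 4 of 18 of complex V. The ETS letters were in 5, 3, 2, 6 and 4 of these. For NRF1, the 6 of complex I, and the share over all members, count Ndufa5 by both of its windows, which share the match. CCAAT boxes were in 10 of the 18 promoters of complex V. Assembly factors had SP/KLF letters in 15 and ETS letters in 8 of 19 promoters. No match says only that these letters are not in this window.

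**Figure D5:**
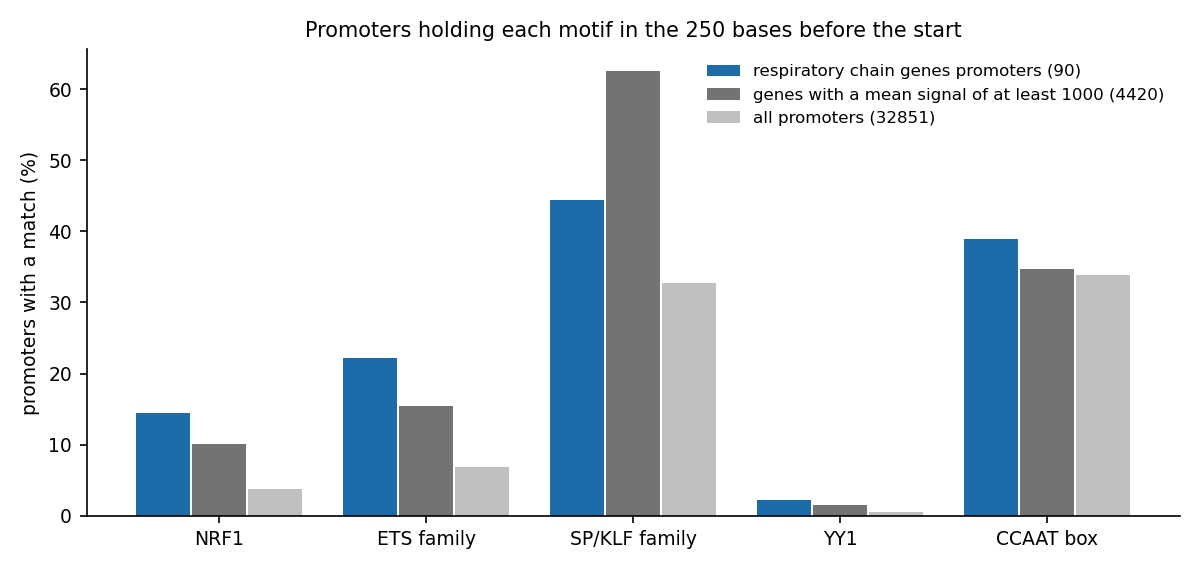
Percentage of promoters that hold each of 5 motifs in the 250 bases before the start, for the members, for genes with a mean signal of at least 1000 and for all promoters. NRF1 is in 14.4% of members' promoters against 10.1% and 3.74%, and the SP/KLF letters in 44.4% against 62.5% and 32.7%.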

How the data were processed

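The values deposited by the authors are signal intensity, 1 per probe set and array; GCOS, the Affymetrix software, is named in the submitters' processing notes, with its settings not given in the sources used here. They were used as deposited. Of 45101 probe sets, 64 controls were set apart, and 34945 had 1 gene symbol. The brightest set by mean stood for its gene, which was kept at a mean of 67.95 or more, the median over probe sets. Signals under 46.5, the 40th percentile, were set to that floor before log2. Genes were counted at 1.5-fold, with no test and no p-value, and the SD between probe sets of one gene was the one measure of error. Shares over all genes stand beside counts of members. The members and lists were chosen with earlier results of these data known. Named were the 2 brightest and the dimmest structural subunit of each complex, genes past 1.5-fold (the 6 widest where over 12), isoforms, genes with disagreeing probe sets and the Sdh subunits; not all are printed, and examples given for a role were picked after their values were seen. Alternatives used R 4.3.3 with limma 3.58.1; other steps used Python 3.11.15 with pandas 2.3.3, and the ratios and counts were tested on simulated data. The number of arrays limits the precision.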

Additional observations from a re-analysis of the deposited data

Results flagged for a closer look

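For 5 genes the irradiation ratio went opposite ways in the genotypes, by at least 1.2-fold each way, a limit set after the values were seen. They are 5.21% of the 96 genes, beside 9.61% of all genes that met the same limit. None is among the 82 with a mean of at least 1000, beside 2.15% of all genes with such a mean. The difference was not tested, and each contains the unirradiated array labelled Wip1-/-. As the log2 ratio in cells labelled Wip1-/- minus that in Wip1+/+ cells, Ndufaf6, a complex I assembly factor, had 2.25, from -0.45 in Wip1+/+ and 1.80 in cells labelled Wip1-/-. Cox15, which makes heme A, had 1.03, from -0.52 and 0.52, but its second probe set had 0.24 and 0.95, the same direction in both. Cox10, which makes heme O, had -1.07, from 0.33 and -0.74, and its second set -0.02 and -0.73. Cox6a2, the muscle form of subunit VIa, had 1.35, from -0.30 and 1.05. Cox6b2, the testis form of subunit VIb, had -0.83, from 0.51 and -0.32.

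A probe set outside the rule reports ND5, a complex I subunit encoded in mitochondrial DNA. It read 24283 and 22183 in Wip1+/+ cells, and 59352 unirradiated and 19453 irradiated in cells labelled Wip1-/-, so the high value lies on the array that stood apart.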

How the results depend on the processing

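No paired analysis was possible because each group has 1 array and the labels carry no replicate numbers. No scaling moved the median of all genes by over 0.1 on the log2 scale. A median was called moved only past 1 SD between probe sets of a gene, a wide limit, so turns of sign are given too. In Wip1+/+ cells 1 gene was lower with the floor at the 25th percentile or with no floor, and 1 higher with no filter. In cells labelled Wip1-/- the genes lower after irradiation numbered 6 with the median over probe sets and 7 with structural subunits only, which also gave complex II a median of 0.27. With the mean of both Wip1+/+ arrays in place of the array that stood apart, 2 were higher and 2 lower, with no share over all genes counted. With that replacement these ratios turned: Sdha -0.19, Ndufb10 -0.13, Ndufa6 -0.14, Ndufs8 -0.16, Ndufc1 0.14, Ndufaf4 0.12, Sdhd 0.0062, Cox6c 0.014, Sdhaf2 0.14 and Atp5l 0.013. The median over probe sets turned Cox6c to 0.27 there. Leaving out sets that can cross-hybridize (_x_at, _s_at) turned Atp5pb to -0.46 there and to 0.41 between unirradiated genotypes, where the median over probe sets left 7 genes higher and turned the medians of all members (-0.03), complex III (-0.01) and complex V (-0.17). Between irradiated genotypes, members with a mean of at least 1000 gave 0 higher and 1 lower. That alternative, and the choice of the brightest set by the 3 other arrays, were added after the data were seen. Except where the alternative's own construction shows it, the cause was not tested.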
